A study of Mus musculus with 6 samples.

Results

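The 9 genes of collagen processing and crosslinking followed here, of the 12436 genes listed in the deposited tables, were Serpinh1, P4ha1, Plod1, Plod2, Fkbp10, Fkbp11, Pcolce, Lox, and Loxl3. They were taken from the tables by gene symbol, a rule that used no measured value. The members and the gene lists below were, however, chosen with earlier results of these data known. The libraries came from tibialis anterior muscle (TAM) of male mice on a B6;129 background with the tm1(Fucci2aR)Jkn allele of Gt(ROSA)26Sor, a cell cycle reporter that all groups share and that stays off in these mice without Cre, at 3 to 5 months of age. Control mice ate the matched diet, and hypothyroid mice ate a diet low in iodine with 0.15% w/w propylthiouracil (PTU), which blocks thyroid hormone synthesis, from 3 weeks before injury. Muscles were taken uninjured (day 0) or at 5 or 14 days after injection of cardiotoxin at 50 ug/ml (dpi), a snake toxin that kills myofibers, and muscle of 3 mice was pooled into 1 library for each of the 6 conditions. There were no replicates. No difference between conditions was therefore tested, and every interval given covers counting error only. In the labels the day is also the batch, so day and batch cannot be told apart, while the diets were compared within a batch label.

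Fibrillar collagens are made as procollagen chains in the endoplasmic reticulum, where prolines and lysines are hydroxylated, the chains are folded into a triple helix by chaperones and isomerases, and the trimer is exported. Outside the cell the propeptides are cut off, the molecules assemble into fibrils, and lysyl oxidases turn lysines into aldehydes that form the crosslinks. In injured muscle this work is done largely by fibro-adipogenic progenitors (FAPs), the interstitial mesenchymal cells that lay down a transient matrix, and in tendon by tenocytes.

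Reference promoters were looked at for the core of the hypoxia response element, because P4ha1, Plod2, and Lox are textbook targets of hypoxia-inducible factors. RefSeq promoters of build GRCm38.p6 (250 bases before to 50 after the gene start) were matched for 5 members, Serpinh1, P4ha1, Plod1, Fkbp11, and Pcolce. No promoter was used for Plod2, Fkbp10, Loxl3, and Lox. The letters ACGTG or GCGTG were searched on both strands. They stood in 43.8% of all 32851 promoters of that length, with ACGTG in 19.6% and GCGTG in 32.4%. The promoters of P4ha1 (chr10:59323046-59323345, plus strand), Serpinh1 (chr7:99353190-99353489, minus strand), and Fkbp11 (chr15:98727578-98727877, minus strand) are shown. In hypothyroid muscle these members took the flattest, the highest, and the steepest course below, a choice made after their values were seen. Capitals mark the letters found, read 5′ to 3′ along the gene's strand.
P4ha1: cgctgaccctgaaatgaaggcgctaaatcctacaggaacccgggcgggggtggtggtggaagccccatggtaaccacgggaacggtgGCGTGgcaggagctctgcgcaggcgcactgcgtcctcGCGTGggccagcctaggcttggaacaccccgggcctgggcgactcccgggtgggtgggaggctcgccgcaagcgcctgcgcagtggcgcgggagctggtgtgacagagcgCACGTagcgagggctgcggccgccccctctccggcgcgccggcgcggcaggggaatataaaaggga
Serpinh1: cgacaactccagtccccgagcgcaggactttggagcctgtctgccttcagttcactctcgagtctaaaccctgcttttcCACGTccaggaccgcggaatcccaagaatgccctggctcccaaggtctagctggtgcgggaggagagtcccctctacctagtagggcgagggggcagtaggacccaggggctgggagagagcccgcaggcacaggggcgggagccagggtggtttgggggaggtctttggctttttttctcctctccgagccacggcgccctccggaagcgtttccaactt
Fkbp11: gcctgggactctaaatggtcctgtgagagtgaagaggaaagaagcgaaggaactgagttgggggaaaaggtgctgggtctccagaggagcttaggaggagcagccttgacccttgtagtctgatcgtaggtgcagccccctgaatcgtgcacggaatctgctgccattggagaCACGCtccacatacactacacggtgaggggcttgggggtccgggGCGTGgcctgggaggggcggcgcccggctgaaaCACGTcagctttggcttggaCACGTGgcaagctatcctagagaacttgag
P4ha1 held GCGTG at bases 88 and 125 of the window and ACGTG at base 235 on the other strand. Serpinh1 held ACGTG once, at base 80 on the other strand. In Fkbp11, ACGTG stood at bases 251 and 271 on the other strand and at base 272 on the gene's strand, the last pair overlapping, and GCGTG stood at base 174 on the other strand and at base 218. A second Fkbp11 promoter (chr15:98728149-98728448) held neither, and Plod1 and Pcolce held GCGTG only. Such a match is a description of letters and not a binding site.

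In the 11207 cells used, the libraries held 2283740 to 23496509 unique molecular identifiers (UMIs, each a captured RNA molecule), with a median of 3634 to 8055 per cell. Cells were assigned to a type by marker genes, and 4195 were FAP-like: 750, 319, and 1407 in control muscle at 0, 5, and 14 days, and 285, 649, and 785 in hypothyroid muscle. All 14 FAP markers had UMIs in these cells in every library, at a summed 53971, 12737, and 31784 CPM in control and 53474, 11230, and 25520 CPM in hypothyroid libraries (CPM, UMIs per 1000000 UMIs of the cells pooled). The median depth of FAP-like cells was 5637, 11054, and 5980 UMIs in control and 4412, 13798, and 9541 in hypothyroid libraries. The tables also hold 9062 further cell columns, which were left out. Of these, 1680 repeat cells of other tables, and they are all the later columns at day 0 (1152 control and 528 hypothyroid). The condition of the other later columns is unknown, so values below with all columns of the tables may mix conditions. The 6 first runs shared no cell column, and 11195 of their 11207 barcodes were distinct.

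Serpinh1, the collagen-specific chaperone (HSP47) of the endoplasmic reticulum, lies at chr7:98994583-99002447 (mm39, as in the tables). Its level in FAP-like cells of control muscle was 572 CPM (95% exact Poisson interval 550.2 to 595) at day 0, 2679 (2630 to 2729) at 5 dpi, and 847 (828 to 866) at 14 dpi. In hypothyroid muscle it was 472 (437 to 509), 1481 (1456 to 1505), and 635 (617 to 653). Both diets had their high point at 5 dpi, and the control library was above the hypothyroid library on each day, with intervals that did not overlap. The ratio of 5 dpi to day 0 was 4.68 (95% exact binomial interval 4.49 to 4.89) in control and 3.14 (2.90 to 3.39) in hypothyroid libraries. The ratio of hypothyroid to control was 0.825 (0.757 to 0.898) at day 0, 0.553 (0.539 to 0.567) at 5 dpi, and 0.749 (0.722 to 0.777) at 14 dpi. The value at 5 dpi depended on the cells used: with all columns of the tables it was 1.02, and without cells that held a UMI of Cthrc1, Tnc, or Lrrc15 it was 0.739.

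P4ha1 (chr10:59159118-59209127) encodes a catalytic subunit of prolyl 4-hydroxylase, whose hydroxyprolines make the triple helix stable. It stood at 161, 219, and 135 CPM in control FAP-like cells at 0, 5, and 14 days and at 143, 139, and 112 CPM in hypothyroid ones. This was the flattest course of the 9 in hypothyroid muscle, where 5 dpi over day 0 gave 0.970 (0.837 to 1.13), against 1.36 (1.23 to 1.5) in control muscle. Hypothyroid over control was 0.886 (0.755 to 1.04), 0.633 (0.582 to 0.690), and 0.831 (0.760 to 0.909).

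The lysyl hydroxylases are Plod1 (chr4:147994210-148021225), which acts on lysines of the helix, and Plod2 (chr9:92424276-92490482), which acts on the telopeptides and so sets the type of crosslink. Plod1 was at 32.4, 64.3, and 49.0 CPM in control and at 24.3, 55.9, and 42.4 CPM in hypothyroid FAP-like cells. Plod2 was at 56.3, 289, and 112 CPM in control and at 69.4, 254, and 128 CPM in hypothyroid FAP-like cells. Both had their highest value at 5 dpi in either diet, with a wider swing for Plod2: 5 dpi over day 0 was 5.13 (4.48 to 5.90) and 3.66 (3.00 to 4.52) for Plod2, and 1.99 (1.62 to 2.45) and 2.30 (1.63 to 3.34) for Plod1, in control and hypothyroid libraries. For Plod1 the diet ratio was 0.750 (0.503 to 1.09), 0.868 (0.749 to 1.01), and 0.866 (0.746 to 1.0). For Plod2 it was 1.23 (0.968 to 1.56) at day 0, 0.880 (0.821 to 0.943) at 5 dpi, and 1.14 (1.04 to 1.25) at 14 dpi. The value at 5 dpi became 1.1 relative to the median of all genes and 1.30 with all columns of the tables, on the same side of 1 as the other days. For Plod1 these settings gave 1.09 and 1.1 at 5 dpi.

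Fkbp10 (chr11:100306523-100315651) and Fkbp11 (chr15:98622247-98626080) encode prolyl isomerases of the endoplasmic reticulum. Fkbp10 is needed for the hydroxylation of telopeptide lysines, and Fkbp11 is a marker of secretory cells. Fkbp10 was at 22.3, 148, and 42.6 CPM in control and at 23.6, 145, and 43.1 CPM in hypothyroid FAP-like cells. The diet ratios were 1.06 (0.694 to 1.57), 0.979 (0.890 to 1.08), and 1.01 (0.869 to 1.18), with counting intervals that held 1 on each day. With all columns of the tables Fkbp10 was at 1.55 at 5 dpi and at 2.30 at day 0, where the added columns repeat cells of other tables. Fkbp11 was at 13.6, 169.8, and 38.1 CPM in control and at 6.25, 225, and 40.9 CPM in hypothyroid FAP-like cells. It had the largest ratio of 5 dpi to day 0 among the 9 in both diets, at 12.5 (9.58 to 16.5) in control, where Loxl3 came close, and at 36.0 (18.9 to 78.8) in hypothyroid libraries, where day 0 rested on 9 UMIs. Its diet ratio was 0.458 (0.20 to 0.928) at day 0, 1.32 (1.22 to 1.44) at 5 dpi, and 1.07 (0.916 to 1.26) at 14 dpi. With all columns of the tables, which at day 0 add only repeated cells of other tables, the ratio at day 0 turned to 2.44.

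Pcolce (chr5:137603365-137612047) encodes the enhancer that speeds removal of the C-terminal propeptide by BMP1. It stood at 419 (401 to 439), 523 (501 to 545), and 673 (656 to 690.1) CPM in control FAP-like cells, and at 233 (208 to 259), 634 (618 to 650.3), and 552 (535 to 569) CPM in hypothyroid ones. Unlike the other 8 members it was highest at 14 dpi in control muscle, while in hypothyroid muscle the highest level was at 5 dpi. Hypothyroid over control was 0.555 (0.492 to 0.623) at day 0, 1.21 (1.16 to 1.27) at 5 dpi, and 0.820 (0.788 to 0.854) at 14 dpi. The ratio of 1.21 became 0.879 when cells with a UMI of Cthrc1, Tnc, or Lrrc15 were left out, and 0.939 with all columns of the tables.

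Lox encodes lysyl oxidase, the amine oxidase that starts collagen and elastin crosslinks, and Loxl3 (chr6:83011154-83029544) encodes a relative with scavenger receptor domains. Lox was at 166, 1130, and 331 CPM in control and at 153, 1190, and 355 CPM in hypothyroid FAP-like cells. Its 5 dpi over day 0 ratio was 6.82 (6.31 to 7.38) and 7.79 (6.82 to 8.95), and its diet ratios were 0.922 (0.790 to 1.07), 1.05 (1.02 to 1.09), and 1.07 (1.02 to 1.13). These moved with the cells used: Lox was at 1.85 at day 0 and 1.62 at 5 dpi with all columns of the tables, and at 0.644 and 1.41 without cells over 3 times the median UMIs. At day 0 the added columns repeat cells of other tables. Without cells with a UMI of an injury matrix gene it was at 1.46 at 5 dpi. Loxl3 was at 19.4 (15.6 to 24.0), 235 (221 to 250), and 25.1 (21.9 to 28.6) CPM in control and at 15.3 (9.57 to 23.1), 127 (119.6 to 134), and 10.5 (8.27 to 13.1) CPM in hypothyroid FAP-like cells. At 5 dpi over day 0 Loxl3 was at 12.1 (9.70 to 15.2) and 8.29 (5.45 to 13.3). Loxl3 ratios were 0.785 (0.468 to 1.27), 0.539 (0.495 to 0.587), and 0.418 (0.318 to 0.543), the last being the lowest diet ratio among the 9 members on any day. With all columns of the tables Loxl3 was at 1.23 at 5 dpi and at 0.573 at 14 dpi. Its ratio at 5 dpi was 0.874 without cells over 3 times the median UMIs and 0.707 without cycling cells.

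**Figure D1:**
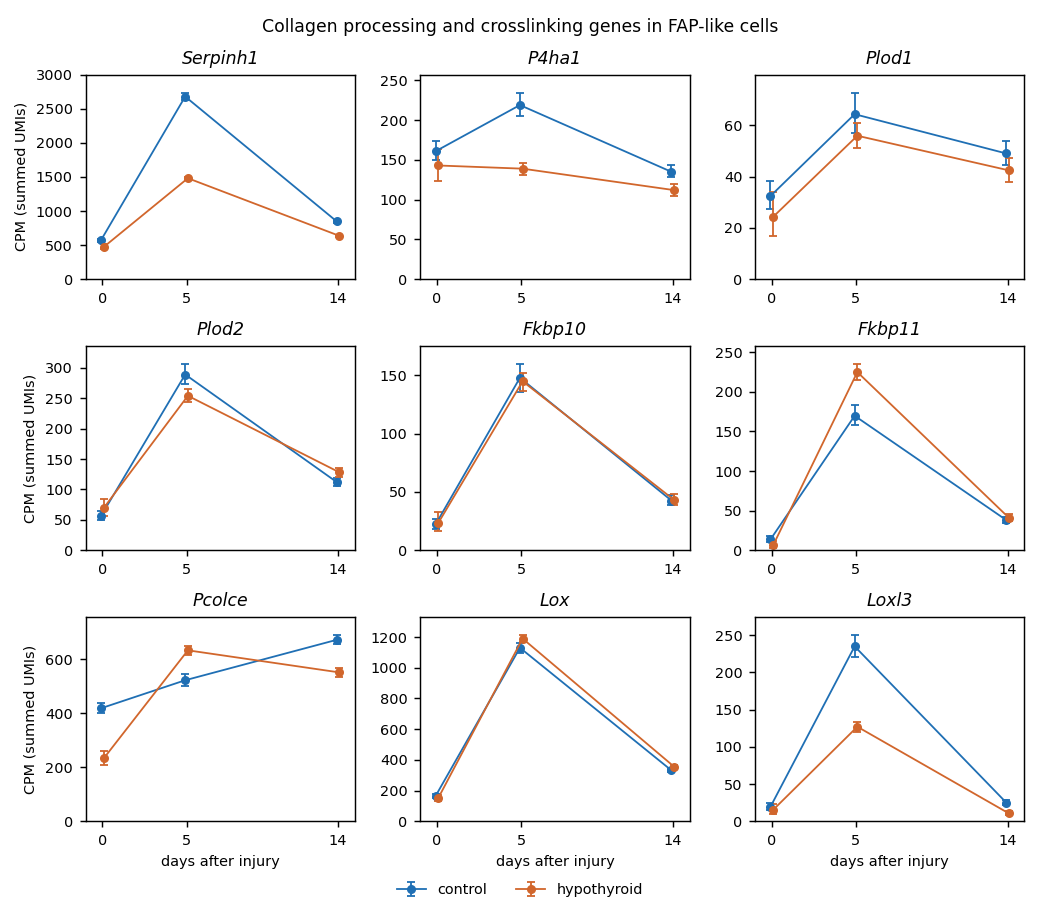
CPM of each gene in FAP-like cells (vertical axes, starting at 0) against days after injury, with control libraries in blue and hypothyroid libraries in orange; each point is 1 library and bars are 95% Poisson intervals of counting error. Most panels peak at day 5, while Pcolce is highest at day 14 in control muscle (673 CPM) and P4ha1 stays between 112 and 219 CPM.

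At 5 dpi most members stood above their level in uninjured muscle. From day 0 to 5 dpi, 7 of 9 were at least 1.5-fold higher in control FAP-like cells, where 28.4% of the 9296 genes tested were, and 0 were at least 1.5-fold lower (22.7% of genes). The 2 below that size were P4ha1 and Pcolce. In hypothyroid FAP-like cells 8 of 9 were higher (24.9% of 9440 genes) and 0 lower (34.4%), P4ha1 being the exception. The median ratio of the 9 was 5.13 and 3.66, against 1.05 and 0.868 over all genes tested. From 5 to 14 dpi, 0 of 9 were at least 1.5-fold higher in control (16.7% of 10121 genes) and 7 were lower (26.7%), Pcolce and Plod1 being the others. In hypothyroid cells 0 were higher (25.7% of 10190 genes) and 6 lower (24.9%), all but P4ha1, Plod1, and Pcolce. The 2 comparisons of a diet share the library of 5 dpi, so a high value there enters both.

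The course was also seen in the share of cells. After each FAP-like cell was thinned to 2000 UMIs and shallower cells were left out, 7.06% (95% Clopper-Pearson interval 5.25 to 9.25) of 680 control cells at day 0 held UMIs of 4 or more members, 58.9% (53.1 to 64.6) of 297 at 5 dpi, and 19.1% (16.9 to 21.4) of 1253 at 14 dpi. In hypothyroid libraries these shares were 3.88% (1.87 to 7.01) of 258, 59.0% (55.0 to 62.9) of 610, and 17.3% (14.6 to 20.2) of 747. The median cell held 2, 4, and 2 of the 9 in control and 1, 4, and 2 in hypothyroid libraries, and before thinning 3, 7, and 4, and 2, 7, and 4. Markers of other cell types also moved in FAP-like cells. The 7 tenocyte markers, 6 or 7 of which had UMIs, summed to 71.3, 1087, and 316 CPM in control and 90.9, 1408, and 847 CPM in hypothyroid cells. The 11 myocyte markers, all with UMIs, summed to 2880, 571, and 6916 CPM in control and 8633, 127, and 1804 CPM in hypothyroid cells. The part of other cells' RNA in the members' levels was not tested.

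Between diets, fewer members stood apart. At day 0, 0 of 9 were at least 1.5-fold higher in hypothyroid FAP-like cells (8.39% of the 7936 genes tested) and 2, Fkbp11 and Pcolce, were lower (9.36%). At 5 dpi 0 were higher (6.66% of 10071 genes) and 3, Serpinh1, P4ha1, and Loxl3, were lower, where 30.5% of genes were lower as well, so that the members' share was near the background. The median ratio over all genes was 0.798 on that day. Relative to this median, 0 members were at least 1.5-fold lower and 2 were higher, Fkbp11 at 1.66 and Pcolce at 1.52, while Serpinh1 was at 0.692, Loxl3 at 0.675, and P4ha1 at 0.793. At 14 dpi 0 were higher (3.43% of 9987 genes) and only Loxl3 was lower (15.4%), with a median over all genes of 0.939. Among the genes tested at 14 dpi, 2.84% had a ratio below that of Loxl3, and at day 0 3.73% had one below that of Pcolce and 1.63% one below that of Fkbp11. With all columns of the tables, repeated ones included, 50 of the 63 ratios of members over the 7 comparisons kept their side of 1. At day 0 the diet ratio then became 2.2 for Serpinh1 and 7.05 for Loxl3. All columns added at day 0 repeat cells of other libraries, so this setting is no check of the comparisons that hold day 0. Columns added at 5 and 14 dpi are of unknown condition, so the setting cannot check those days either. At 14 dpi the control FAP-like cells held more myocyte RNA (above) and 1458 CPM of 5 erythroid markers against 14.5 CPM in hypothyroid cells, and its part was not tested.

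**Figure D2:**
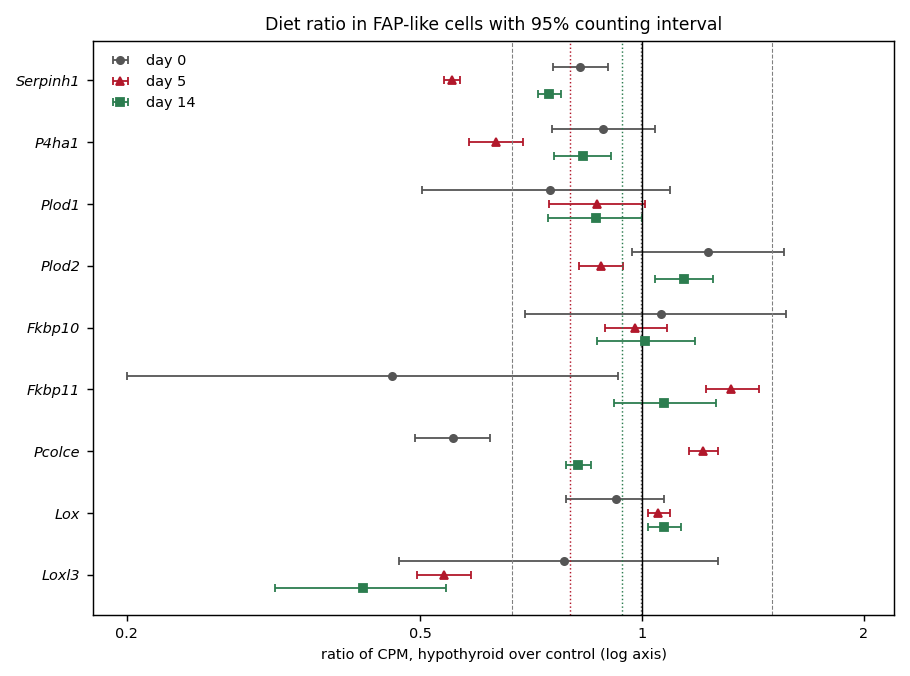
Ratio of CPM in hypothyroid over control FAP-like cells (horizontal log axis) for each gene, with day 0 in grey circles, day 5 in red triangles, and day 14 in green squares; bars are 95% intervals of counting error, dashed lines mark 1.5-fold either way, and dotted lines mark the median ratio of all genes on each day. Serpinh1, P4ha1, and Loxl3 at day 5, Loxl3 at day 14, and Pcolce and Fkbp11 at day 0 lie beyond the lower dashed line.

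FAP-like cells were next split by genes that are no members: cycling cells with UMIs of at least 3 proliferation genes, then cells with a UMI of the injury matrix genes Cthrc1, Tnc, or Lrrc15, then of Pi16 or Dpp4, which mark a reserve-like adventitial state, then of Smoc2. Injury matrix cells made up 2.93%, 61.1%, and 29.9% of FAP-like cells at 0, 5, and 14 days in control and 3.51%, 66.3%, and 45.0% in hypothyroid libraries. Cycling cells made up 26.0% and 21.6% at 5 dpi and under 1% at 14 dpi. These shares rest on cells of unequal depth, with medians of 20431 UMIs in cycling, 10300 in injury matrix, and 6615.5 in Pi16 or Dpp4 cells, and a deeper cell is more likely to show a UMI of any gene.

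At 5 dpi Serpinh1, Lox, and Loxl3 were higher in cycling and injury matrix cells than in Pi16 or Dpp4 cells in both diets. The Pi16 or Dpp4 pools held only 23 control and 42 hypothyroid cells on this day. Serpinh1 was at 1193, 2497, and 3103 CPM in Pi16 or Dpp4, injury matrix, and cycling cells of control muscle and at 594, 1462, and 1577 CPM in hypothyroid muscle. Lox was at 393, 1053, and 1323 CPM in control and at 328, 1210, and 1212 CPM in hypothyroid muscle. Loxl3 was at 42.9, 174, and 339 CPM in control and at 24.8, 121, and 145 CPM in hypothyroid muscle. Its values in Pi16 or Dpp4 cells rested on 6 and 4 UMIs. Serpinh1 was lower in hypothyroid muscle in each of these 3 states, with ratios of 0.498 (0.383 to 0.644), 0.585 (0.567 to 0.605), and 0.508 (0.489 to 0.529). For Loxl3 the ratio was 0.697 (0.617 to 0.787) in injury matrix cells and 0.428 (0.377 to 0.486) in cycling cells. Fkbp11 differed the other way in injury matrix cells, with 218 CPM in hypothyroid against 141 CPM in control muscle (1.54, 1.37 to 1.75), and was at 224 and 255 CPM in cycling cells (1.14, 1.0 to 1.29). P4ha1 went from 150.0 to 257 CPM in control and from 86.6 to 147 CPM in hypothyroid muscle across the 3 states, in that order. Its values in Pi16 or Dpp4 cells rested on 21 and 14 UMIs, with intervals that overlapped those of injury matrix cells. Pcolce was at 393, 525, and 527 CPM in control and at 359, 666, and 589.6 CPM in hypothyroid muscle. In hypothyroid muscle Plod1 was highest in the 26 Smoc2 cells, at 72.6 CPM, a value that rested on 5 UMIs.

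**Figure D3:**
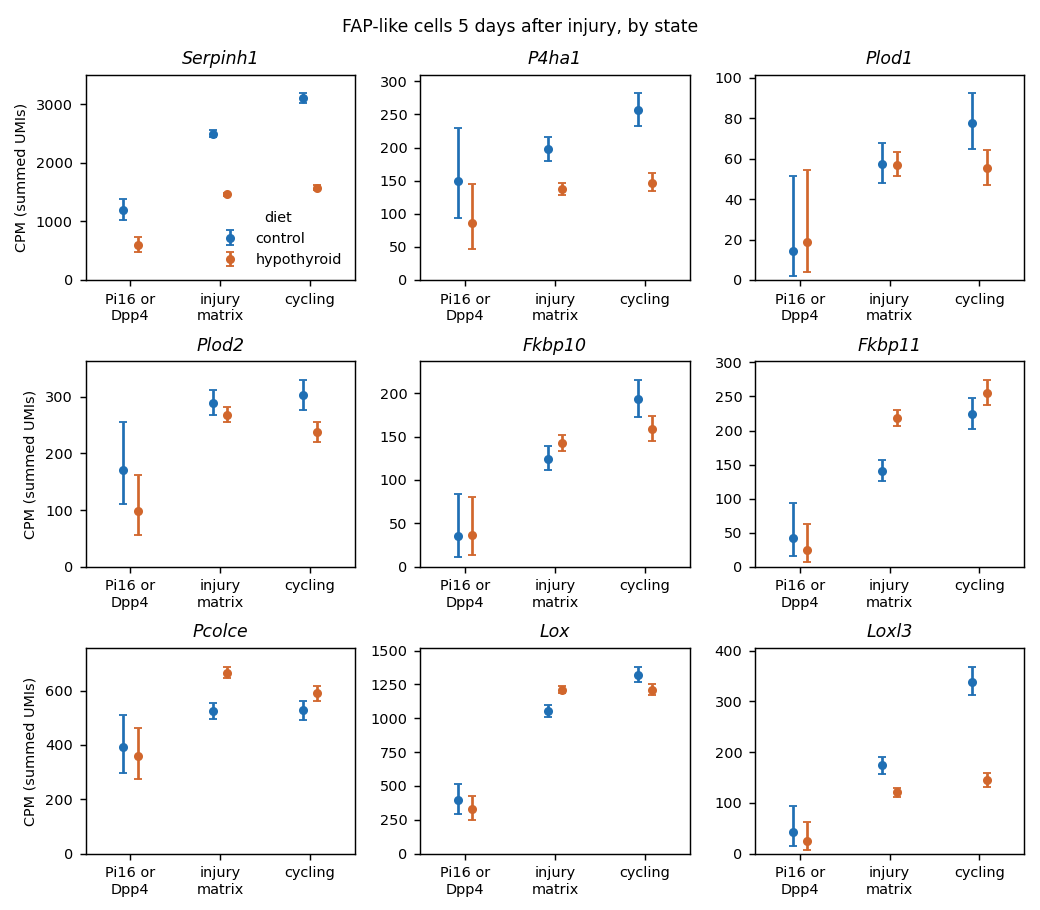
CPM of each gene (vertical axes, starting at 0) in 3 states of FAP-like cells at 5 dpi, with control in blue and hypothyroid in orange and 95% Poisson intervals of counting error as bars. Serpinh1 is lower in hypothyroid muscle in all 3 states, and Fkbp11 and Pcolce are higher in the injury matrix state.

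The 2 large resident states also differed by diet at other times. At day 0 Pcolce was lower in hypothyroid muscle in both Pi16 or Dpp4 cells (238 against 399.9 CPM, ratio 0.596, 0.514 to 0.688) and Smoc2 cells (249 against 459 CPM, ratio 0.542, 0.435 to 0.670). Lox split at day 0, at 154 against 104 CPM in Pi16 or Dpp4 cells (1.48, 1.20 to 1.81) and at 96.0 against 204 CPM in Smoc2 cells (0.472, 0.328 to 0.662). At 14 dpi Loxl3 was at 7.13 against 25.2 CPM in Pi16 or Dpp4 cells (0.283, 0.164 to 0.464), at 12.8 against 31.3 CPM in Smoc2 cells (0.410, 0.162 to 0.918), and at 12.2 against 22.2 CPM in injury matrix cells (0.551, 0.377 to 0.799). All 3 states were thus lower in the hypothyroid library for this gene, where the Smoc2 value rested on 8 UMIs. Without injury matrix cells, including cycling cells with such a UMI, 5 dpi over day 0 was 2.03 and 1.76 for Serpinh1, 2.45 and 3.58 for Lox, and 3.98 and 3.30 for Loxl3 in control and hypothyroid muscle, so that these 3 were above day 0 in the remaining cells too, while P4ha1 was at 0.939 and 0.618. Besides cycling cells without such a UMI, 23 Pi16 or Dpp4, 12 Smoc2, and 6 other cells remained in control muscle at 5 dpi. In hypothyroid muscle these were 42, 26, and 11. The values above for Serpinh1, Pcolce, and Lox without such cells at 5 dpi rest on the same cells.

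The enzymes were then set against their main substrates, the fibrillar collagen chains Col1a1, Col1a2, and Col3a1. Each library read the 3′ ends of transcripts, so a UMI stands for a molecule of any length and no length was divided out. The 3 chains summed to 3554, 39085, and 22190 CPM in control and 1895, 26853, and 17462 CPM in hypothyroid FAP-like cells. Serpinh1 had 161 (154 to 168) UMIs per 1000 collagen UMIs at day 0, 68.5 (67.2 to 69.9) at 5 dpi, and 38.2 (37.3 to 39.1) at 14 dpi in control muscle, and 249 (229 to 271), 55.1 (54.2 to 56.1), and 36.3 (35.3 to 37.4) in hypothyroid muscle. The chaperone was therefore lower against its substrate at 5 dpi although its own level was higher, since collagen RNA was higher by more. Over the 9 members together, which Serpinh1, Pcolce, and Lox dominate, the value was 412, 139.6, and 101 in control and 601, 158, and 109.9 in hypothyroid muscle.

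Of Serpinh1, Pcolce, and Lox, the last kept closest to collagen from day 0 to 5 dpi, at 46.6 (43.2 to 50.2), 28.9 (28.1 to 29.8), and 14.9 (14.4 to 15.5) per 1000 in control and 80.6 (69.9 to 92.5), 44.3 (43.5 to 45.2), and 20.3 (19.6 to 21.1) in hypothyroid muscle. On each day this was higher in the hypothyroid library. Fkbp11 was at 3.84, 4.35, and 1.72 per 1000 in control and 3.30, 8.37, and 2.34 in hypothyroid muscle. Of the 9, only Fkbp11 and Loxl3 (5.47 and 6.01) in control, and Fkbp11 in hypothyroid muscle, were at least as high per collagen UMI at 5 dpi as at day 0, and the control intervals overlapped between these days. P4ha1 went from 45.4 to 5.60 per 1000 in control and from 75.5 to 5.17 in hypothyroid muscle.

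**Figure D4:**
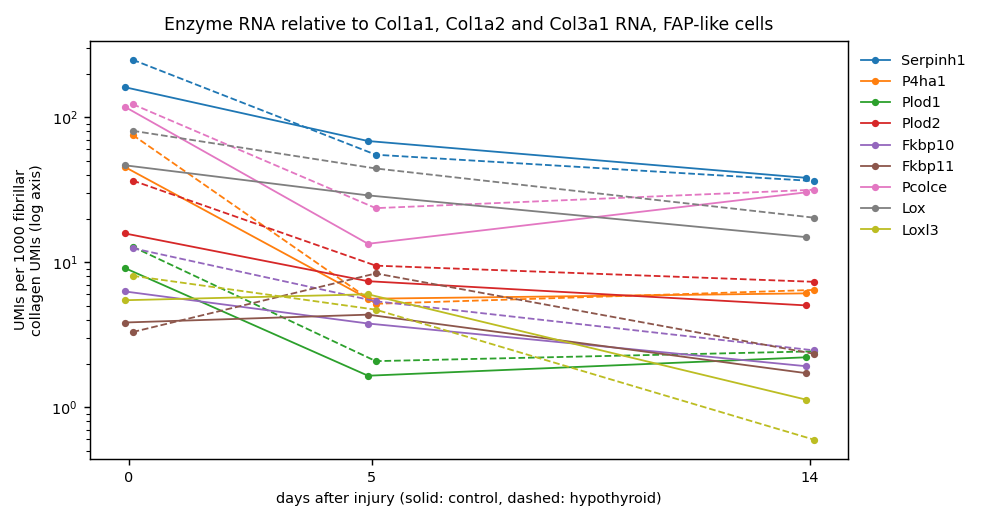
UMIs of each gene per 1000 UMIs of Col1a1, Col1a2, and Col3a1 in FAP-like cells (vertical log axis) against days after injury, with control libraries as solid and hypothyroid libraries as dashed lines. Most lines go down from day 0 to day 5, Serpinh1 from 161 to 68.5 in control, while the Fkbp11 lines do not.

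Across cell types, FAP-like and tenocyte-like cells held the highest levels of most members. FAP-like cells held 63.1% of all Serpinh1 UMIs, 65.7% of Plod2 UMIs, and 51.0% of Plod1 UMIs, while they held 46.8% of all UMIs. Tenocyte-like cells, which could be given in the 4 libraries with at least 20 of them, had Lox at 1782 CPM at day 0 and 756 CPM at 14 dpi in control and 2007 CPM at 5 dpi and 727 CPM at 14 dpi in hypothyroid muscle. In uninjured control muscle this was above the 166 CPM of FAP-like cells, as was P4ha1 at 401 against 161 CPM, with intervals that did not overlap. Pcolce was at 526, 1511, 688, and 854 CPM in the same tenocyte-like pools. Plod1 was the least tied to these cells: endothelial-like cells had 129 CPM (115 to 145) at 14 dpi in control muscle, above the 49.0 CPM of FAP-like cells and the 103 CPM (85.8 to 124) of tenocyte-like cells, whose interval it overlapped. Mural-like cells of hypothyroid muscle at 14 dpi had Plod1 at 177 CPM (109 to 270.3), on 21 UMIs.

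Mural-like cells (pericytes and smooth muscle) of control muscle at 5 dpi came close to FAP-like cells, with Serpinh1 at 2083 CPM (1909 to 2269), Fkbp11 at 182 CPM (133 to 243), and Loxl3 at 202 CPM (150.1 to 265). These 34 cells also held 11366 CPM of the 3 collagens, and 10 cells held 90.4% of their member UMIs. Myogenic progenitor-like cells had Serpinh1 at 268, 1047, and 611 CPM in control and 555, 623, and 492 CPM in hypothyroid muscle at 0, 5, and 14 days. Endothelial-like cells had Serpinh1 between 159 and 669 CPM and Fkbp11 between 0 and 45.8 CPM. Glial-like cells had Serpinh1 at 171 to 413 CPM and myocyte-like cells at 35.5 to 330.3 CPM.

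Immune cells were low. T/NK-like cells had Serpinh1 between 0 and 77.1 CPM and Fkbp11 between 0 and 8.56 CPM, and of the 9 members B-like cells had more than 1 UMI over all libraries only of Serpinh1 and Lox. After thinning to 1000 UMIs, Serpinh1 UMIs were in 52.0% of FAP-like and 2.31% of T/NK-like cells (89.0% and 5.47% before thinning, with median depths of 7101 and 3027 UMIs). For Lox these shares were 26.5% and 1.03% (59.5% and 2.31%), and for Plod1 4.66% and 1.03% (27.3% and 2.85%). T/NK cells are not collagen makers, so their share is read as background.

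**Figure D5:**
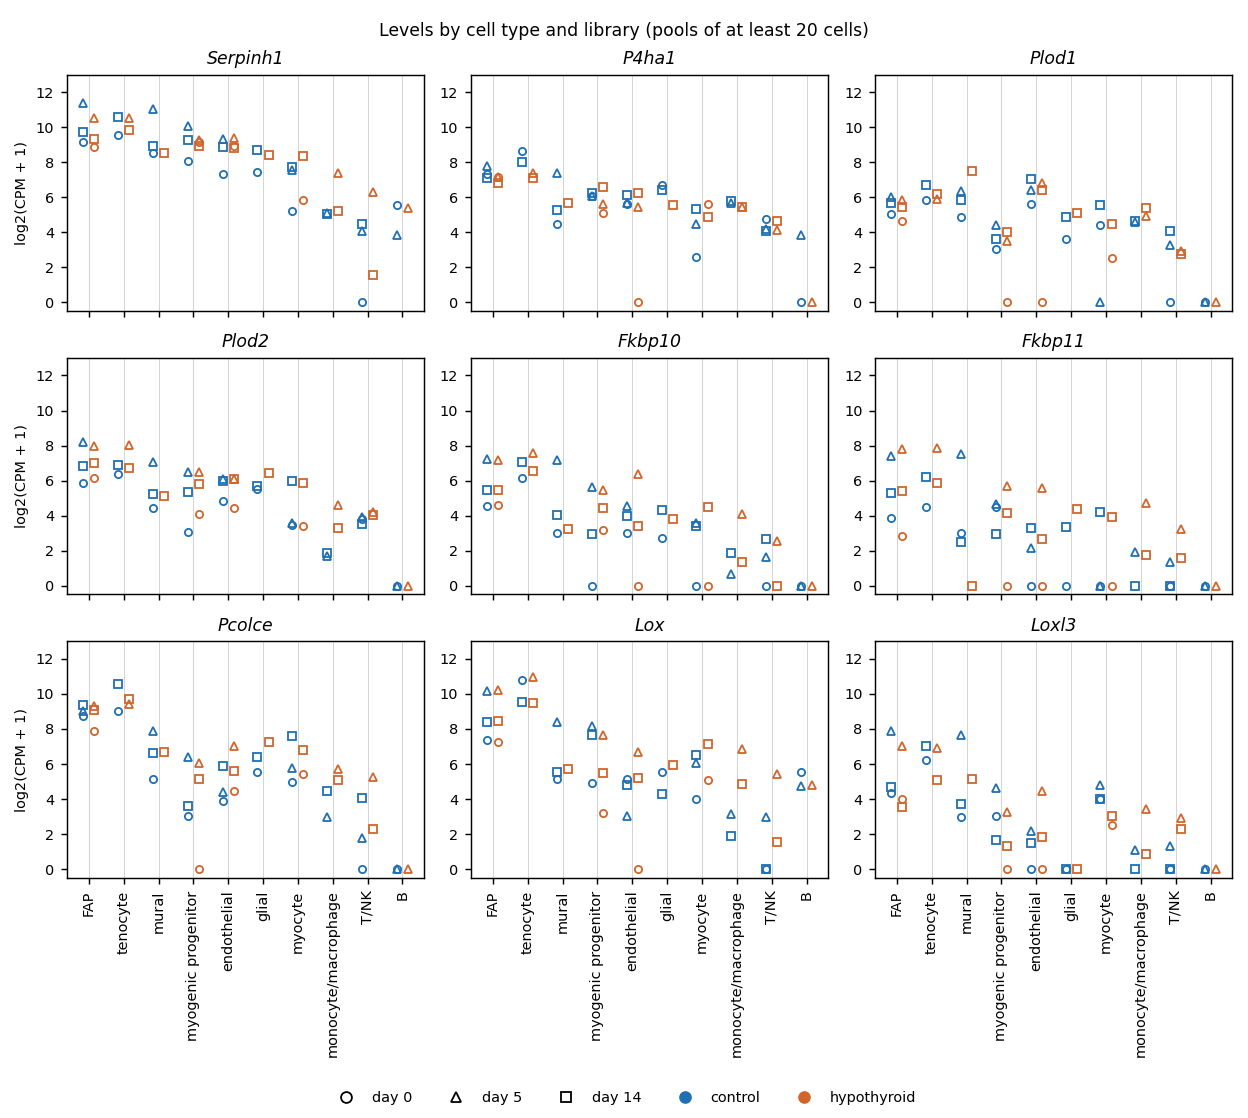
Level of each gene as log2(CPM + 1) in every pool of at least 20 cells (vertical axis), by cell type (horizontal axis), with control in blue, hypothyroid in orange, and circles, triangles, and squares for days 0, 5, and 14. FAP-like and tenocyte-like cells lie at the top of most panels, immune cells at the bottom, and points at 0 are pools without a UMI of the gene.

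Between diets, other cell types were compared where both pools had at least 20 cells and the 2 together 50 UMIs of a member. In tenocyte-like cells at 14 dpi, 4 of 9 were at least 1.5-fold lower in hypothyroid muscle (15.2% of 4336 genes) and 0 higher (15.5%): Serpinh1 at 920.4 against 1527 CPM (0.603, 0.535 to 0.678), P4ha1 at 135 against 256 CPM (0.527, 0.381 to 0.715), Pcolce at 854 against 1511 CPM (0.565, 0.499 to 0.638), and Loxl3 at 33.1 against 129 CPM (0.256, 0.129 to 0.460). Loxl3 was therefore lower in hypothyroid tenocyte-like as well as FAP-like cells at 14 dpi. Its hypothyroid tenocyte-like value rested on 12 UMIs in 4 of 42 cells. The 3 collagens were at 29695 against 47212 CPM in these pools of 42 and 183 cells, and the median ratio over all genes was 1.03. In myogenic progenitor-like cells at 5 dpi, 3 of 9 were lower (28.8% of 7695 genes), Serpinh1 (0.596, 0.556 to 0.638), Plod1 (0.523, 0.304 to 0.908), and Loxl3 (0.359, 0.205 to 0.621), and Fkbp11 alone was higher, at 49.8 against 24.3 CPM (2.05, 1.40 to 3.08), where 7.81% of genes were. All 4 lay on the same side of 1 as in FAP-like cells of that day, where the interval of Plod1 held 1. The median ratio over all genes was 0.810, and the 3 collagens were at 2116 against 4134 CPM. Other pools, given without the share over all genes, went both ways at 1.5-fold. Serpinh1 was higher in hypothyroid myogenic progenitor-like cells at day 0 (2.07). At 5 dpi Pcolce was higher in endothelial-like cells, and Serpinh1 and Lox in T/NK-like cells. At 14 dpi Serpinh1 and Lox were higher in myocyte-like cells, and Plod1 in mural-like and monocyte/macrophage-like cells. Lower at 14 dpi were Plod1 in endothelial-like, Lox in myogenic progenitor-like, and Pcolce in myocyte-like cells.

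In monocyte/macrophage-like cells at 5 dpi, 7 of 9 were at least 1.5-fold higher in hypothyroid muscle (16.6% of 7852 genes) and 0 lower (31.8%), all but P4ha1 and Plod1, with a median over all genes of 0.862. Serpinh1 was at 164 against 32.6 CPM (5.03, 3.85 to 6.70) and Lox at 114 against 8.0 CPM (14.2, 8.4 to 26.1). In the same hypothyroid library FAP-like cells had Lox at 1190 CPM. Collagen RNA moved with them: the 3 chains summed to 2250 against 316 CPM, and the 14 FAP markers, all with UMIs, to 915 against 253 CPM. In the hypothyroid library 10 of 642 cells held 55.3% of the members' 2691 UMIs, and in the control library 10 of 320 held 40.7% of 221. The members also differed in T/NK-like cells, at 217 against 70.3 CPM in sum, where collagens were at 699 against 249 CPM. The part of free RNA and of droplets with more than 1 cell was not tested.

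Of 66 other genes of collagen making, 65 were listed in the tables, and most were above day 0 at 5 dpi as well. In FAP-like cells from day 0 to 5 dpi, 43 of 61 tested were at least 1.5-fold higher and 9 lower in control, and 41 of 62 higher and 7 lower in hypothyroid muscle, against 28.4% and 24.9% higher and 22.7% and 34.4% lower over all genes. In control muscle the 8 tested genes of prolyl hydroxylation and its complex were all higher, as were 15 of 19 of folding and export and 11 of 15 substrates. From 5 to 14 dpi, 29 of 62 were lower and 9 higher in control (26.7% and 16.7% of all genes) and 33 of 63 lower and 8 higher in hypothyroid muscle (24.9% and 25.7%).

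Between diets these genes were lower in hypothyroid FAP-like cells at day 0 in 18 of 58 cases (9.36% of all genes) and higher in 0 (8.39%), with a median ratio of 0.782 against 0.996 over all genes. Of the 15 substrates 10 were lower, with a median of 0.589. Col1a1 was at 457 against 937 CPM (0.487, 0.448 to 0.529). The 3 lowest, ranked here and below by the interval bound nearest 1, were Fmod, a fibril-binding proteoglycan that is also among the tenocyte markers, at 0.159 (0.0423 to 0.424), Adamts2, which cuts the N-terminal propeptide, at 0.352 (0.268 to 0.455), and Sparc, a collagen-binding matrix protein, at 0.496 (0.468 to 0.525). The 3 highest were Sar1b, of the export coat, at 1.44 (1.18 to 1.75), and the proteoglycans Lum at 1.17 (1.1 to 1.24) and Dcn at 1.13 (1.12 to 1.15). Lum and Dcn are also among the FAP markers by which these cells were assigned.

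At 5 dpi 17 of 63 were lower and 2 higher, against 30.5% lower and 6.66% higher over all genes, so that neither share stood above the background. The median was 0.803 against 0.798 over all genes. The 3 lowest were Loxl1, the oxidase of elastic fibers, at 0.465 (0.440 to 0.491), Colgalt1, which adds sugar to hydroxylysine, at 0.475 (0.439 to 0.514), and the crosslinking transglutaminase Tgm2 at 0.410 (0.323 to 0.521). Of the highest 3, Tll1, a protease of the BMP1 family, was at 4.21 (2.51 to 7.55), Fmod at 3.39 (2.45 to 4.79), and Ppib, a prolyl isomerase of the hydroxylase complex, at 1.43 (1.38 to 1.48). On this day Loxl1 and Loxl3 stood below 1, as did Loxl2 at 0.684 (0.645 to 0.726), Loxl4 at 0.671 (0.430 to 1.06), and the median of all genes, while Lox did not. At 14 dpi 9 of 62 were lower and 3 higher, near the 15.4% and 3.43% over all genes, with a median of 0.809 against 0.939. Postn, which helps assemble crosslinked fibrils, was at 2.68 (2.59 to 2.76), Tll1 at 2.72 (1.86 to 4.02), and Col12a1 at 1.68 (1.48 to 1.92), while Col15a1 was at 0.276 (0.250 to 0.305), Adamts2 at 0.393 (0.361 to 0.428), and elastin, Eln, at 0.437 (0.408 to 0.469).

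Hypoxia, transforming growth factor beta, and secretory stress genes were read beside the members. Of 5 hypoxia genes tested in FAP-like cells, 3 were higher at 5 dpi than at day 0 in control muscle: Vegfa (1.52), Pgk1 (1.56), and Ldha (1.75). In hypothyroid muscle 2 were higher (Pgk1 at 1.69 and Ldha at 1.60) and 3 lower (Vegfa at 0.562, Slc2a1 at 0.623, and Bnip3 at 0.518). Between diets Vegfa was higher in hypothyroid muscle at day 0 (829.5 against 295 CPM) and 14 dpi (1090 against 578 CPM), Bnip3 was higher at day 0 (24.3 against 10.7 CPM), and Slc2a1 was lower at 5 dpi (40.7 against 90.1 CPM). Of 4 growth factor response genes, Tgfb1 was lower at day 0 (0.514) and Tgfbi at 14 dpi (0.658). Of 4 secretory stress genes, Xbp1 was lower at 5 dpi, at 100 against 169 CPM (0.590, 0.535 to 0.651), and 0 were past 1.5-fold at day 0 and 14 dpi.

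The genes most like the members over 46 pools of cell type and library, by Pearson correlation of log2(CPM + 1) among 9681 genes, were taken as a description, since pools of a library share depth and free RNA. For the sum of the 9 they included Fkbp7 (0.95) and Calu (0.92). Fkbp7 encodes another isomerase of the endoplasmic reticulum and Calu a calcium-binding protein of the secretory pathway. For single members the nearest were Rbfox2 (0.90) for Serpinh1, Slc35f5 (0.83) for P4ha1, Mmp14 (0.83) for Plod1, Col8a1 (0.88) for Plod2, P4hb (0.89) for Fkbp10, P4ha3 (0.89) for Fkbp11, P3h3 (0.89) for Pcolce, Col12a1 (0.86) for Lox, and Tmem45a (0.85) for Loxl3. Among the members the closest pair was Plod2 and Fkbp10 (0.86), and the least alike were Plod1 and Lox (0.49).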

How the data were processed

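Single-cell RNA sequencing (10x Chromium, v3 3′ chemistry) was done by the authors on 6 libraries. Reads were aligned to mm39 with Cell Ranger inside Partek Flow v11.0, transcripts were counted on GENCODE M30 models, and low-quality cells were dropped, after which log2(CPM + 1) per cell was deposited by the authors. Some cells kept in the tables exceed the UMI limit that the methods state. The commonest non-zero value of a cell was set to 1 UMI, and 99.933% of 39334018 values then came out whole within 0.02 UMI. Only the first run of alphabetically ordered barcodes in each table was used, on the assumption that it is the labelled library.

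A cell was assigned to the class with the highest mean share of its markers (each scaled to the mean of its top 100 cells and capped at 1), given at least 3 detected markers and a 1.5-fold lead. This rule was settled after cells had been looked at. Neutrophils and plasma cells were no classes, and 1628 cells stayed unassigned. At 5 dpi these were 571 of 2428 control and 350 of 2155 hypothyroid cells, against 55 of 1152 and 47 of 528 at day 0. Of 1121 cells in the cluster with Tnc and Cthrc1 among its top genes, 777 were FAP-like, so the FAP-like pools miss part of it. No doublets were removed. UMIs were summed per class and library. No test was run, since cells of 1 pooled library are not replicates. Members counted as apart had a ratio of at least 1.5-fold and at least 50 UMIs in both pools together. Ratios and the assignment were tested on simulated data, and the outcome is not given here. The members and lists were chosen with earlier results of these data known. Genes named beyond the members were the 3 of the collagen list furthest from 1 each way by diet (by the interval bound nearest 1), the nearest genes by correlation (1 is not reported here), and hypoxia, growth factor, and stress genes past 1.5-fold. Clustering (20 components, 2000 genes, 15 neighbours, resolution 0.3) was an alternative. Software was leidenalg 0.10.2, igraph 0.11.9, scanpy 1.11.5, matplotlib 3.10.9, scipy 1.17.1, numpy 2.4.6, and pandas 2.3.3 under Python 3.11.15.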

Additional observations from a re-analysis of the deposited data

Results flagged for a closer look

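Several members had diet ratios in FAP-like cells on opposite sides of 1 on different days, with both counting intervals away from 1. The differences were not tested. Fkbp11 was at 0.458 at day 0 and 1.32 at 5 dpi. Pcolce was at 0.555 at day 0, 1.21 at 5 dpi, and 0.820 at 14 dpi. Plod2 was at 0.880 at 5 dpi and 1.14 at 14 dpi, but at 1.1 at 5 dpi relative to the median of all genes and at 1.30 with all columns of the tables. Pcolce also went opposite ways from 5 to 14 dpi, at 1.29 in control and 0.870 in hypothyroid muscle. With all columns, Fkbp11 at day 0 turned to 2.44 and Pcolce at 5 dpi to 0.939. The columns added at day 0 repeat cells of other tables, and the condition of those added at 5 dpi is unknown.

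At 5 dpi, 3 members were lower in hypothyroid FAP-like cells and higher in hypothyroid monocyte/macrophage-like cells, which was not tested either: Serpinh1 at 0.553 and 5.03, Loxl3 at 0.539 and 8.66, and Plod2 at 0.880 and 10.1. With all columns of the tables these 3 were at 1.02, 1.23, and 1.30 in FAP-like cells, above 1 as in macrophage-like cells. The condition of the columns added at 5 dpi is unknown, so that setting cannot check this day. In FAP-like cells the 9 members summed to 2259 CPM in the added control columns, against 5457 CPM in the first run. In the 2 added hypothyroid runs they summed to 1108 and 5366 CPM, against 4250 CPM in the first run. Relative to the median of all genes Plod2 was at 1.1 in FAP-like cells. The macrophage-like pools also differed in the 3 collagens, at 2250 CPM in hypothyroid against 316 CPM in control muscle. In the hypothyroid pool 10 of 642 cells held 55.3% of the members' UMIs. In the control macrophage pool Loxl3 rested on 2 UMIs and Plod2 on 4, with intervals of 2.29 to 73.3 and 3.86 to 37.7.

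Later columns of unknown condition also held FAP-like cells with the 9 members at a summed level above the 1463 CPM of uninjured control muscle. These were 2259 CPM in run 2 of the table labelled control at 5 days, 1856 CPM in run 3 of the table labelled control at 14 days, and 5366 CPM in run 3 of the table labelled hypothyroid at 5 days. The other runs of unknown condition were below it. Run 2 of the table labelled control at 14 days was at 1441 CPM. Run 2 of the table labelled hypothyroid at 5 days was at 1108 CPM.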

How the results depend on the processing

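The 7 counts of members at least 1.5-fold apart in FAP-like cells were recomputed under 13 alternatives, of which leaving out cells with a UMI of an injury matrix gene was chosen after seeing the data. Of 91 counts, 79 stayed within 1.5 times. At day 0 the 2 members apart by diet became 5 with all cell columns, 1 after thinning to 2000 UMIs, and 1 at 2-fold. At 5 dpi the 3 became 1 with mean log2(CPM + 10), 0 at 2-fold, and 1 without injury matrix cells. At 14 dpi the 1 became 4 with mean log2(CPM + 1), 0 with mean log2(CPM + 10), and 2 after thinning. Without injury matrix cells the 8 of hypothyroid 5 dpi over day 0 became 5, and the 7 and 6 of 14 over 5 dpi became 3 and 3. Of 34 ratios past 1.5-fold, 3 turned direction, all with all cell columns: Fkbp11 at day 0 (2.44), Serpinh1 at 5 dpi (1.02), and Loxl3 at 5 dpi (1.23). All 34 stayed past 1.5-fold with Leiden clusters, the stricter gate, and CPM without collagen genes, and 31 with median ratio scaling. The condition of the cell columns added at 5 and 14 dpi is unknown, so all cell columns cannot check those days. At day 0 all cell columns add only repeated cells of other libraries, so that setting is no check of day 0. Except where the alternative leaves out cells, adds such cells, or moves the fold, the cause was not tested. No paired analysis was possible because each condition has 1 library. With 1 library a condition, differences between animals and between libraries could not be measured, and levels of a few CPM rest on few UMIs.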
